A study of Mus musculus with 10 samples.

Results

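The inner ear grows from a patch of surface ectoderm under the control of a small set of transcription factors, and 9 of their genes were followed here in the newborn mouse cochlea. The genes were chosen by symbol, as factors and cofactors of the otic epithelium (Pax2, Eya1, Lmx1a, Gata2), the prosensory domain and supporting cells (Sox2, Sox9, Prox1) and the mesenchyme around the ear (Tbx1, Pou3f4). All 9 were found among the 54532 genes of the deposited count table, and all 9 passed the filter on low counts that left 17937 tested genes. RNA came from the soft cochlear tissue of female mice on postnatal day 1, with both ears of an animal combined, so that each library is 1 animal. Control mice (5 libraries) were Esrrgfl/fl: both copies of Esrrg, which encodes estrogen-related receptor gamma, were flanked by loxP sites. Conditional knockout mice (cKO, 5 libraries) were Esrrgfl/fl;Sox10-Cre, the same floxed alleles with a Cre recombinase driven by Sox10 sequence, and Cre was carried by no control. Sox10 is active in otic epithelium, glia and melanocytes, so the mesenchyme lies largely outside the cells in which deletion is aimed for.

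As background, the factors act in sequence and together. Pax2 is a paired-domain factor of the otic placode and vesicle, and Eya1 is a coactivator with phosphatase activity that works with homeodomain partners. Sox2 marks the prosensory domain, from which hair cells and supporting cells arise, and is kept by supporting cells after hair cells lose it. Sox9 is widespread in the otic epithelium and is also a cartilage factor. Prox1 is a homeodomain factor of supporting cells, and is also used by developing neurons and lymphatic endothelium. Pou3f4 is a POU-domain factor of the otic mesenchyme whose human counterpart is an X-linked deafness gene.

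Each group had 5 libraries, whose totals were 33.5 to 41.8 M counts (M, 1000000), with a mean of 37.4 ± 2.76 M in controls and 37.1 ± 2.64 M in the libraries labelled cKO (SD). The targeted gene went against the label: Esrrg was higher in the libraries labelled cKO, with 70.7 to 109 counts per 1000000 (CPM) against 48.5 to 64.7 in controls, a log2 fold change of 0.62 (SE 0.117). Its gene-level count covers all exons and cannot show whether a floxed exon was removed. Every direction given here therefore depends on the genotype label, and cKO stands for that label throughout. By principal component analysis control 2 scored -29.0 on the leading axis, where the other controls scored -4.11 to 5.70, and cKO 5 scored 17.9, where the rest of its group scored -0.690 to 1.77. Values without one of them are given where a call or a sign changes. Hair cell markers, a list not limited to the cochlea, were present in all libraries, with 18 of 18 genes tested and 0 called. Their summed CPM was 355 to 453 in controls and 365 to 451 in the libraries labelled cKO. Markers of vestibular sensory epithelium, a neighbouring organ, summed to 2920 to 3743 CPM in controls and 2848 to 3295 in the libraries labelled cKO. The sum covers 8 genes, of which 7 were tested and 0 called, and Ocm was too low to be tested. The list shares a gene with that of periotic mesenchyme and fibrocytes used below, so its sum does not measure vestibular tissue alone.

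Promoter sequence was available from RefSeq (build GRCm38.p6) for 7 of the 9 genes, in 12 windows of 300 bases, each with 250 bases before and 50 after a start site. The exceptions were Eya1 and Sox9. The windows were searched on both strands for TNAAGGTCA, the element that estrogen-related receptors are known to bind, and for AGGTCA, the nuclear receptor half-site contained in it. TNAAGGTCA was in 0 of the 12 windows and in 1.28% of all 32851 promoter windows. AGGTCA was in 1 of the 12, at Sox2, and in 16.3% of all windows. GC content of the 12 windows ran from 54.7% to 73.7%, above the median of 52.7% over all windows. The windows of Prox1 are shown because its locus holds the lowest fold change of the 9 genes and a called gene that overlaps it, that of Sox2 for its half-site match, and that of Pou3f4 because it was the most abundant of the 9. Capitals mark a match to AGGTCA or its reverse complement, and windows in lower case throughout hold neither motif.
Prox1, window 1, chr1:190170778-190171077 on the minus strand: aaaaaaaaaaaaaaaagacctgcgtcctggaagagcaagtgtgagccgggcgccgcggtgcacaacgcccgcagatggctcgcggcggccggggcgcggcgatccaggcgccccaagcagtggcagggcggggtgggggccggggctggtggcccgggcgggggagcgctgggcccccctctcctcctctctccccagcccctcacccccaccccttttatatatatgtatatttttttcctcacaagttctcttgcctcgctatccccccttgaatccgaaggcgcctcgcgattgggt
Prox1, window 2, chr1:190169466-190169765 on the minus strand: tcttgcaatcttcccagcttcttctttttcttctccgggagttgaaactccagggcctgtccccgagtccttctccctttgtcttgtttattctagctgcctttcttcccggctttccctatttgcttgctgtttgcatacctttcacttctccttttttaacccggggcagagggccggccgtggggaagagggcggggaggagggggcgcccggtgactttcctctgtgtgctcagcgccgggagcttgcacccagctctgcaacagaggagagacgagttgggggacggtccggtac
Sox2, chr3:34649745-34650044 on the plus strand: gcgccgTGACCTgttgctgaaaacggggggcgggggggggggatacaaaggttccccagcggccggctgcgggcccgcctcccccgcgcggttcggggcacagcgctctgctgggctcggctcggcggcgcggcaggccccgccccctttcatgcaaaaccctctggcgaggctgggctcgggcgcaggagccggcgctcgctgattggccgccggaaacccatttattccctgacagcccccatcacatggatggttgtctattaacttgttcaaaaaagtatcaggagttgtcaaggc
Pou3f4, chrX:110814129-110814428 on the plus strand: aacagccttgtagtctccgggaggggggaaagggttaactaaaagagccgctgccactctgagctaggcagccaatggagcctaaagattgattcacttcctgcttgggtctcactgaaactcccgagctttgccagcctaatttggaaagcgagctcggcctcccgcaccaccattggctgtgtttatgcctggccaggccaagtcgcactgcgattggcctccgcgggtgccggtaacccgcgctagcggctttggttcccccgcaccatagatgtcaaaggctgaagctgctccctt
A match or its absence describes these letters only and says nothing of binding.

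The first question was how abundant each gene was. Levels of different genes were compared as FPKM, which divides the fragments of a gene by its exon length and by the library size. In controls the order was Pou3f4 at 177.9 ± 28.5 FPKM, Sox9 at 34.2 ± 5.84, Sox2 at 25.5 ± 4.25, Eya1 at 23.5 ± 2.60, Tbx1 at 22.2 ± 1.80, Gata2 at 19.9 ± 2.00, Lmx1a at 9.66 ± 2.35, Prox1 at 3.66 ± 0.754 and Pax2 at 2.93 ± 0.549 (SD, n = 5). Pou3f4 was 5.20 times Sox9 and 60.8 times Pax2, and 98.9% of all tested genes had a lower control mean. Sox9, Sox2, Eya1, Tbx1 and Gata2 formed a middle group in which the ranges of neighbours overlapped. Lmx1a lay below Gata2 and above Prox1 in all 5 controls without overlap. Prox1 and Pax2 overlapped in controls, with Prox1 the higher in 4 of 5. Pax2 exceeded 41.0% of tested genes in control level and Prox1 45.7%.

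**Figure D1:**
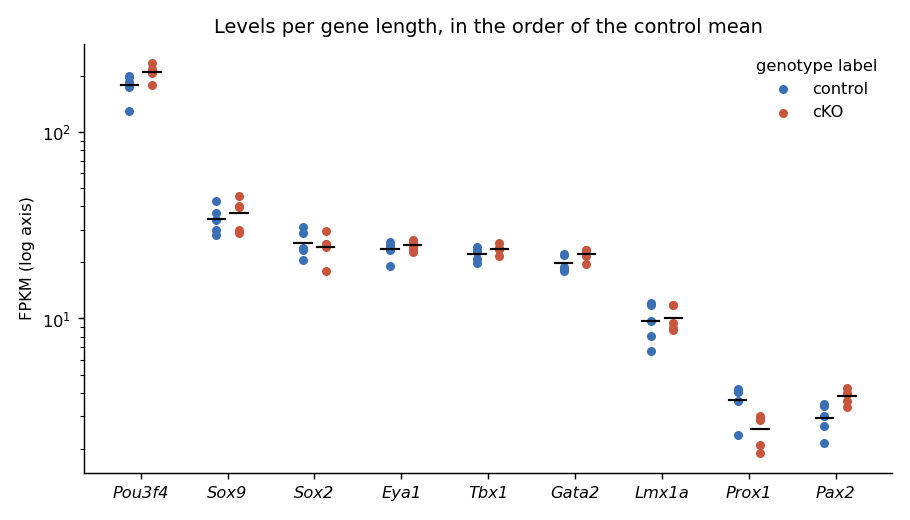
FPKM of each gene (vertical log axis) in 5 control and 5 cKO libraries, with the group mean as a bar and genes ordered by control mean. Pou3f4 stands highest, 5 genes lie close together in the middle, and Prox1 and Pax2 are lowest and change places between the genotype labels.

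In the libraries labelled cKO the order was the same except for 2 pairs of neighbours. Eya1 (24.7 ± 1.56 FPKM) and Sox2 (24.3 ± 4.18) exchanged places within overlapping ranges. Pax2 (3.83 ± 0.340) stood above Prox1 (2.54 ± 0.505) in 5 of 5 libraries without overlap. Sox9 stood above Eya1 without overlap in that group (1.49 times). The levels of Prox1 and Pax2 did not pass the test between genotypes described next.

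The second question was whether any of the 9 differed between the genotype labels. By edgeR's quasi-likelihood test with Benjamini-Hochberg adjustment over all 17937 genes, 0 of the 9 were called at an adjusted p under 0.05, where 0.619% of all tested genes were called (0.546% as lower and 0.0725% as higher). At an unadjusted p under 0.05 there were 2 of 9, Prox1 and Pax2, against 9.65% of all tested genes. Prox1 was the 1 lower gene (5.52% of all tested genes were lower at that level) and Pax2 the 1 higher gene (4.13%). DESeq2 called 0 of the 9, where it called 1.71% of all genes, and limma-voom with quality weights called 1, Prox1, where it called 2.36% of all genes and 1.98% as lower. A fit with the replicate number as a block called 0 of the 9, where it called 0.563%. The number of the 9 with no overlap in CPM between genotypes was 0, against 2.84% of all tested genes. Log2 fold changes were positive for 7 and negative for 2, with a median of 0.08 against -0.01 over all tested genes.

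These misses are not evidence of equal expression, and the 95% intervals of the fold changes give what the data allow. For all 9 genes the interval lay within 2-fold either way, and for 7 within 1.5-fold, the exceptions being Prox1 and Pax2. Standard errors of the log2 fold change ran from 0.0756 for Tbx1 to 0.164 for Prox1. Counts were not a limit: no gene had fewer than 457 counts in any library. RNA was taken from whole tissue, so a lower value can come from fewer cells of a type or from less RNA per cell, which cannot be told apart here.

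**Figure D2:**
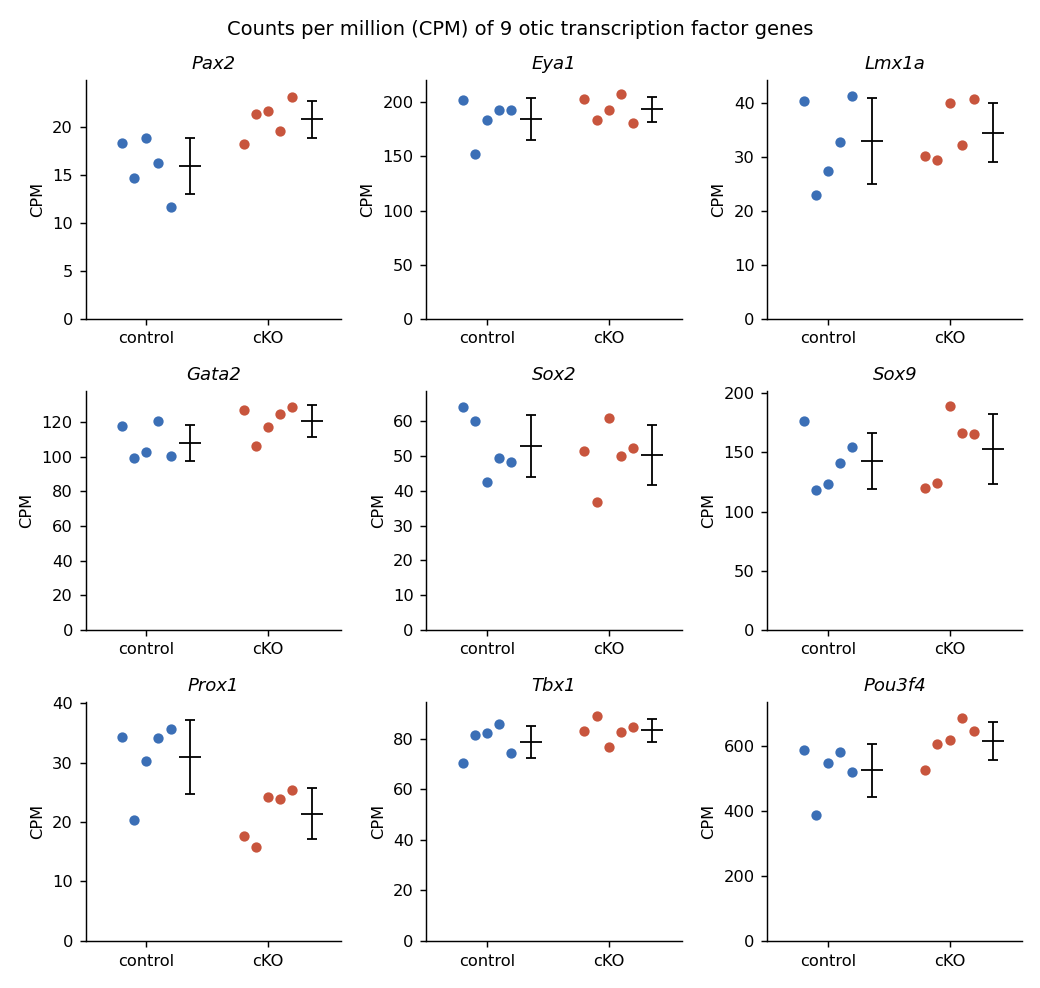
CPM of the 9 genes (vertical axes from 0) in each control and cKO library, with mean and SD beside the points. For Prox1, control 2 is the single control among the cKO libraries, and Pax2 and Pou3f4 have 4 cKO libraries each above every control.

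**Figure D3:**
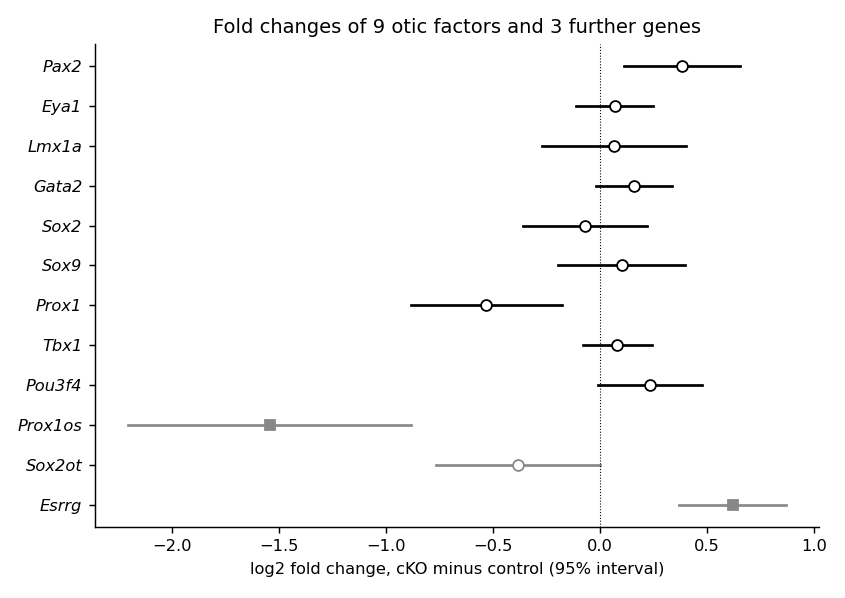
Log2 fold change of cKO minus control (horizontal axis) with its 95% interval for the 9 genes (black) and for Prox1os, Sox2ot and Esrrg (grey). Filled squares have an edgeR adjusted p under 0.05, which holds for Prox1os and Esrrg and for none of the 9.

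Among the factors of the otic epithelium, Pax2 (ENSMUSG00000004231; GRCm38 chromosome 19, 44756045 to 44837871, plus strand) had the highest fold change. Controls 1 to 5 held 18.4, 14.6, 18.8, 16.3 and 11.7 CPM, and the libraries labelled cKO held 18.2, 21.4, 21.7, 19.6 and 23.2. Of the libraries labelled cKO, 4 lay above every control, and cKO 1 lay inside the control range. The log2 fold change was 0.38 (SE 0.127; 95% interval 0.11 to 0.66), with an unadjusted p of 0.00937 and an edgeR adjusted p of 0.311. The exact two-sided permutation test of the means gave p = 0.0238. Over 19 alternatives the adjusted p ran from 0.151 to 0.656.

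Eya1 (chromosome 1, 14168954 to 14310235, minus strand) had 202, 152, 183, 193 and 193 CPM in controls 1 to 5, and 203, 184, 193, 208 and 181 in the libraries labelled cKO. Control 2 was the lowest of all 10 libraries, and the other values of the 2 groups were interleaved. Its log2 fold change was 0.07 (SE 0.0845; 95% interval -0.11 to 0.25), which was -0.0052 without control 2.

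Lmx1a (chromosome 1, 167689237 to 167848741, plus strand) is a LIM-homeodomain factor of nonsensory otic epithelium and later of marginal cells of the stria vascularis. It held 40.4, 23.1, 27.5, 32.9 and 41.4 CPM in controls and 30.3, 29.5, 40.04, 32.3 and 40.8 in the libraries labelled cKO. It was the most variable of the 9 among controls, with a coefficient of variation of 24.1%, higher than that of 91.5% of the 5724 tested genes whose control mean lay within 2-fold of its own. Its log2 fold change was 0.06 (SE 0.157; 95% interval -0.27 to 0.40) and its sign turned without control 2 (-0.051) and without cKO 5 (-0.00092).

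Gata2 (chromosome 6, 88193891 to 88207032, plus strand) encodes a zinc finger factor that also acts in endothelial and blood lineages. Its values were 118, 98.99, 103, 120.5 and 100.2 CPM in controls and 127, 106, 117, 125 and 129 in the libraries labelled cKO. Of the libraries labelled cKO, 3 lay above every control. The log2 fold change was 0.16 (SE 0.0829; 95% interval -0.02 to 0.34), with an edgeR adjusted p of 0.575 and an exact permutation p of 0.0714. Summed CPM of 10 endothelial marker genes overlapped between the groups (563 to 688 in controls, 633 to 678 in the libraries labelled cKO).

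Of the sensory and supporting cell factors, Sox2 (chromosome 3, 34650405 to 34652461, plus strand, a single exon) had 64.1, 60.1, 42.7, 49.3 and 48.2 CPM in controls. The libraries labelled cKO held 51.6, 36.9, 61.1, 49.9 and 52.2 CPM. The ranges nearly coincided, and the log2 fold change of -0.07 (SE 0.135; 95% interval -0.36 to 0.22) was positive, at 0.083, with limma-voom. Sox2ot, a long noncoding gene on the same strand whose span holds Sox2 but whose exons share no base with it, had 2.29, 2.84, 3.16, 3.33 and 3.25 CPM in controls. In the libraries labelled cKO it held 2.43, 1.77, 2.88, 2.45 and 1.83 CPM. The difference was -0.38 on the log2 scale (SE 0.179), and its edgeR adjusted p was 0.517.

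Sox9 (chromosome 11, 112782224 to 112787760, plus strand) had 177, 118, 124, 141 and 154 CPM in controls and 119.9, 124, 189, 167 and 166 in the libraries labelled cKO. Each group spanned most of the range of the other. Between genotypes it differed by 0.10 on the log2 scale (SE 0.139; 95% interval -0.20 to 0.40). Cartilage also uses Sox9. Markers of cartilage and bone, 1 list that is wider than cartilage, had a negative log2 fold change for 9 of 13 tested genes, with 0 called. Summed CPM of that list ran from 9567 to 12342 in controls and from 10049 to 12525 in the libraries labelled cKO.

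Prox1 (ENSMUSG00000010175; chromosome 1, 190118035 to 190170714, minus strand) had the lowest fold change of the 9. Controls 1 to 5 held 34.3, 20.4, 30.3, 34.1 and 35.7 CPM, from 725 to 1472 counts, and the libraries labelled cKO held 17.7, 15.9, 24.2, 23.9 and 25.5 CPM, from 555 to 973 counts. All 5 libraries labelled cKO were below the control mean, and control 2 was the single control inside their range. The log2 fold change was -0.53 (SE 0.164; 95% interval -0.88 to -0.18), with an unadjusted p of 0.00597, an edgeR adjusted p of 0.269 and an exact two-sided permutation p of 0.0317. Without control 2 the groups did not overlap, which follows from leaving out the single control inside that range. The exact permutation p was then 0.00794, the smallest that 126 assignments can give, and is no separate support. By edgeR without control 2 the log2 fold change was -0.66 with an adjusted p of 0.0193. That fit called 1.09% of its genes. limma-voom gave -0.56 with an adjusted p of 0.0144. Over all 19 alternatives the log2 fold change stayed between -0.66 and -0.39 and the adjusted p between 0.0144 and 0.453, the last without cKO 2.

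A gene on the opposite strand, Prox1os (ENSMUSG00000079045; chromosome 1, 190170296 to 190217276, plus strand), starts inside the first exon of Prox1. Its first exon of 133 bases lies wholly within the first exon of 2 of the 3 annotated Prox1 transcripts, 418 and 384 bases from their starts, and makes up 16.1% of the exon length of Prox1os. It was named because its exons overlap those of one of the 9, and it was the single such case. Controls 1 to 5 held 41, 70, 41, 45 and 47 counts (0.956, 1.97, 1.19, 1.25 and 1.202 CPM). The libraries labelled cKO held 15, 13, 29, 18 and 8 counts (0.4497, 0.372, 0.721, 0.4596 and 0.219 CPM). Prox1os fell in the libraries labelled cKO by 1.55 on the log2 scale (SE 0.309; edgeR adjusted p = 0.0360), and the groups did not overlap. Leaving out 1 library at a time, 8 of 10 fits lost the call, and only those without control 2 (adjusted p = 0.0455) or without cKO 3 (0.0226) kept it. The highest adjusted p was 0.117, without cKO 2, and the 10 fold changes lay between -1.80 and -1.36 on the log2 scale.

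The pair did not move in parallel in every library. Prox1os counts were 2.79% to 3.92% of Prox1 counts in controls 1, 3, 4 and 5 and 9.66% in control 2, which was lowest of the controls for Prox1 and highest for Prox1os. They were 0.858% to 2.98% in the libraries labelled cKO. Whether reads were counted by strand is not stated, so reads from the shared bases cannot be assigned to 1 of the 2 genes. Window 1 of the Prox1 promoter shown above lies in the intron of Prox1os, and window 2 lies outside it.

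**Figure D4:**
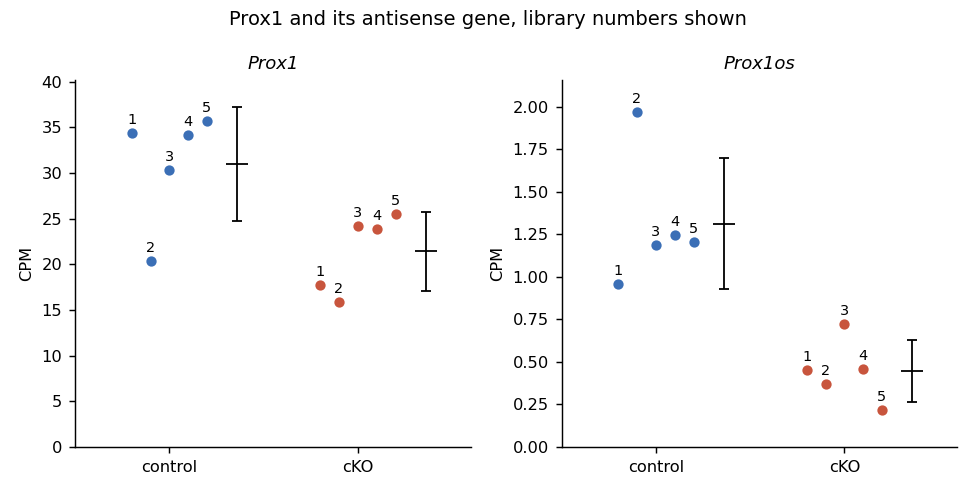
CPM of Prox1 (left) and of Prox1os (right) by library, with replicate numbers, mean and SD and axes from 0. Control 2 is the lowest control for Prox1, at 20.4 CPM, and the highest for Prox1os, at 1.97 CPM.

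Markers of supporting cells and neurons, which can use Prox1, were set beside it, with those of glia and brain tissue. No list was made for lymphatic endothelium. Of 10 endothelial markers, 5 had a negative and 5 a positive log2 fold change, with 0 called. Supporting cell markers had a negative log2 fold change for 7 of 20 genes, with 0 called. At an unadjusted p under 0.05, 2 were lower and 3 higher, where 5.52% and 4.13% of all tested genes were. Their summed CPM was 4694 to 5463 in controls and 5188 to 5643 in the libraries labelled cKO. Spiral ganglion neuron markers had a negative log2 fold change for 11 of 16, with summed CPM of 1624 to 1693 in controls and 1074 to 1815 in the libraries labelled cKO. At an unadjusted p under 0.05, 5 were lower and 2 higher, where 5.52% and 4.13% of all tested genes were. From this list Elavl4, a neuronal RNA-binding protein, fell by 0.74 on the log2 scale (edgeR adjusted p = 0.00108). Of all tested genes 0.546% were called lower. Schwann cell and satellite glia markers had one for 10 of 12, with 0 called and 5 lower and 0 higher at an unadjusted p under 0.05. Their summed CPM was 1076 to 1277 in controls against 719 to 1144. Brain tissue markers had a negative log2 fold change for 8 of 8 tested genes. Over all 12 listed genes the summed CPM was 28.5 to 32.9 against 14.2 to 18.3. Of the 8 tested, 4 (Olig1, whose exons overlap those of another gene, Olig2, Aqp4 and Cbln1) fell, where 0.546% of all tested genes were called lower. Of that list Gabra6 was at 0 in all libraries, and Neurod6, Barhl2 and Neurod2 were too low to be tested. The part of neurons, glia or brain tissue in the Prox1 and Prox1os values was not tested.

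Prox1 is also the nearest of the 9 to Esrrg, which was floxed in both groups. Prox1 lies 1.90 Mb from Esrrg on chromosome 1, with 9 tested genes between them. Of these, 0 were called by edgeR and 2 had an unadjusted p under 0.05, where 0.619% and 9.65% of all tested genes did. Lmx1a lies 19.8 Mb from Esrrg on the same chromosome, with 178 tested genes and 0 calls between them, and Eya1 lies 173 Mb away. The other 6 genes are on other chromosomes. Any part of chromosome position in these values was not tested.

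For the mesenchymal factors, Tbx1 (chromosome 16, 18580979 to 18590671, minus strand), a T-box factor of the otic vesicle and the mesenchyme around it, was the steadiest of the 9. It held 70.3, 81.6, 82.2, 85.9 and 74.2 CPM in controls and 83.2, 89.1, 76.7, 82.8 and 84.8 in the libraries labelled cKO. Its coefficient of variation was 8.13% in controls and 5.34% in the libraries labelled cKO. Between genotypes it differed by 0.08 on the log2 scale (SE 0.0756; 95% interval -0.08 to 0.24).

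Pou3f4 (ENSMUSG00000056854; chromosome X, 110814280 to 110817207, plus strand, a single exon) had 587, 389, 547, 581 and 519 CPM in controls. The libraries labelled cKO held 527, 607, 617, 686 and 646 CPM. Of the latter, 4 lay above every control, and control 2 was the lowest of all 10. The log2 fold change was 0.23 (SE 0.113; 95% interval -0.01 to 0.48), with an edgeR adjusted p of 0.539 and an exact permutation p of 0.0556. Without control 2 the log2 fold change was 0.13 and the exact permutation p was 0.119. Markers of periotic mesenchyme and fibrocytes had a positive log2 fold change for 9 of 13 genes with 0 called, at summed CPM of 12002 to 14641 in controls and 13081 to 15064 in the libraries labelled cKO.

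Control 2 bears on several of these values. It was the lowest of the controls for 6 of the 9 genes (Eya1, Sox9, Prox1, Gata2, Lmx1a and Pou3f4) and the lowest of all 10 libraries for 5 of them. Among controls it had the highest summed CPM of periotic mesenchyme and fibrocyte (14641), vestibular (3743), Schwann cell and satellite glia (1277) and endothelial markers (688). The same held for macrophage (402), brain tissue (32.9) and mast cell markers (26.9). It was the lowest control for cartilage and bone (9567) and marginal cell markers (978). Its hair cell, supporting cell, spiral ganglion neuron and melanocyte sums lay inside the range of the other controls. Control 2 also had the highest summed CPM of 8 erythroid markers, of which 7 were tested. Its sum was 2968, where all 5 controls ran from 714 to 2968 and the libraries labelled cKO from 444 to 1296. All 7 tested erythroid markers had a negative log2 fold change, with a median of -0.76. Of these, 0 were called and 1 was lower at an unadjusted p under 0.05 by edgeR. Further lists had mostly positive fold changes, as 7 of the 9 genes did. Marginal cell markers had one for 10 of 10 genes (978 to 1301 against 1270 to 1345 summed CPM), and macrophage markers for 7 of 10 (341 to 402 against 412 to 479). Melanocyte and intermediate cell markers had one for 9 of 10 (347 to 432 against 385 to 448), and mast cell markers for 4 of 5 tested genes. Of all tested genes 48.3% had a positive one. In these lists 0 genes were called. At an unadjusted p under 0.05 by edgeR, 3, 2, 1 and 2 genes were higher, in the order given, where 4.13% of all tested genes were. Their part in the values of the 9 genes was not tested.

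A further question was how the 9 genes varied together among animals. Log2 CPM with each genotype mean removed was correlated over the 10 libraries for all 36 pairs, with permutation of libraries within genotype and Benjamini-Hochberg adjustment over the pairs. The values of a library share its scaling and its mix of cells. After adjustment 1 pair passed, Prox1 and Lmx1a, with Pearson r = 0.85 (permutation p = 6.94e-05, the smallest the 14400 arrangements can give, adjusted p = 0.0025) and Spearman rho = 0.84 (permutation p = 0.000417, adjusted p = 0.0150). Without the 2 libraries farthest from the median of Prox1, control 2 and cKO 2, r was 0.73. Between genotypes their log2 fold changes were -0.53 and 0.06.

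The next pairs did not pass the adjustment. Sox9 and Lmx1a had r = 0.84 and rho = 0.67 (permutation p = 0.00562 and 0.0161; adjusted p = 0.0675 and 0.260), with r = 0.86 without the 2 farthest libraries. Sox9 and Prox1 had r = 0.83 and rho = 0.76 (permutation p = 0.00472 and 0.0289; adjusted p = 0.0675 and 0.260), with r = 0.75 without them. At the other end, Tbx1 had the 3 lowest values: with Sox9 r was -0.72 and rho -0.67 (permutation p = 0.0249 and 0.0254; adjusted p = 0.219 and 0.260), and -0.78 without the 2 farthest libraries. With Lmx1a r was -0.66 and rho -0.62 (permutation p = 0.0871 and 0.116; adjusted p = 0.318 and 0.398), and with Sox2 r was -0.65 and rho -0.62 (permutation p = 0.0644 and 0.0752; adjusted p = 0.318 and 0.338). Without the 2 farthest libraries these were -0.65 and -0.53.

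Over all 15197 other protein-coding genes tested, those most like each of the 9 in the same within-genotype pattern over 10 libraries were found as a description, with no test. They were Eno4 for Pax2 (Pearson r = 0.92), Wdfy4 for Eya1 (0.96), Zfp629 for Lmx1a (0.97), Zfp993 for Gata2 (0.93), Umad1 for Sox2 (0.98), Zmym2 for Sox9 (0.97), Cbx5 for Prox1 (0.99), Nsmf for Tbx1 (0.95) and Ptbp3 for Pou3f4 (0.98). Next for Prox1 were Pcm1 and Atp13a3 (both 0.98), and for Pou3f4 Smarcc1 (0.98) and Flnc (0.97). These are the highest of many values over few libraries, and libraries share their scaling.

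The last comparison placed the 9 among 73 related factors in 4 lists, of which 65 were tested. The lists were chosen with earlier results of these data known. Their shares beside all tested genes are therefore a description and not an independent test. By edgeR 0 of the 65 were called, and DESeq2 also called 0. At an unadjusted p under 0.05 there were 15 of 65 (23.1%, against 9.65% of all tested genes), of which 13 were higher and 2 lower in the libraries labelled cKO. The median log2 fold change was 0.07 against -0.01 over all tested genes, and 42 of 65 (64.6%) were above 0 against 48.3%. No overlap in CPM was found for 3 genes, 4.62% of the 65 against 2.84%.

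**Figure D5:**
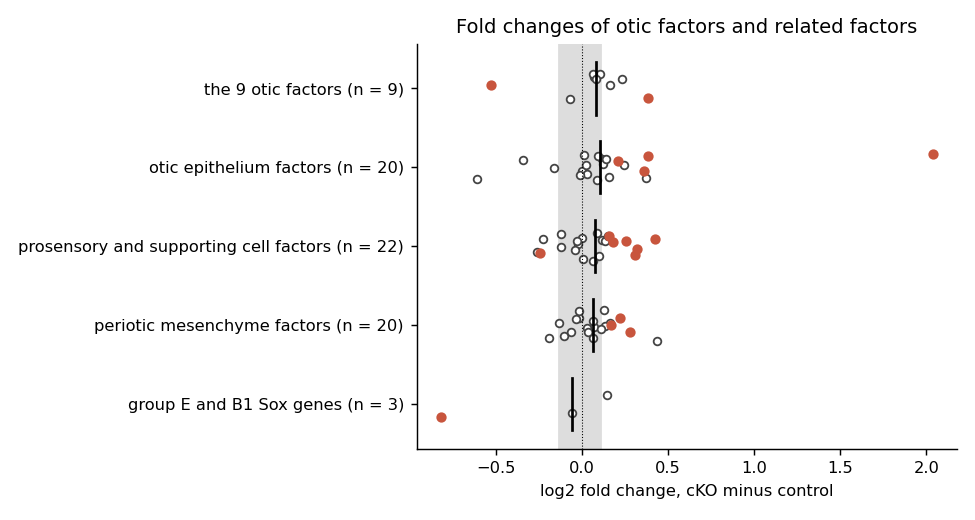
Log2 fold change (horizontal axis) of the 9 genes and of the tested members of 4 lists of related factors, with the median of each as a bar. Filled points have an unadjusted p under 0.05, and the grey band spans the middle 50% of all tested genes, from -0.14 to 0.11.

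Among 20 tested otic epithelium factors, 15 had a positive and 5 a negative log2 fold change, and Foxi3, a placode factor, was at 0 in all libraries. The lowest unadjusted p belonged to Otx1, a homeobox gene of the ear, at 4.56 ± 0.456 CPM in controls and 5.94 ± 0.547 in the libraries labelled cKO, with no overlap and an edgeR adjusted p of 0.293. Zbtb16 followed with 5.64 ± 2.13 and 23.2 ± 25.1 CPM, where the libraries labelled cKO ranged from 6.23 to 65.4, and Hmx3, a homeobox gene of the otic vesicle, with 10.8 ± 1.67 and 13.9 ± 2.37 CPM. Their adjusted p were 0.372 and 0.426.

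Among 22 prosensory and supporting cell factors, 13 had a positive and 9 a negative log2 fold change. Klf4, a zinc finger factor, had 121 ± 16.03 CPM in controls and 151 ± 5.77 in the libraries labelled cKO, with no overlap, a log2 fold change of 0.32 (SE 0.0892) and an edgeR adjusted p of 0.188, the lowest of all 65. Isl1, a LIM-homeodomain factor of the prosensory domain and of sensory neurons, had 65.9 ± 5.73 and 55.6 ± 1.71 CPM, with no overlap, a log2 fold change of -0.25 (SE 0.0755) and an adjusted p of 0.266. Klf4 (adjusted p = 0.0144) and Isl1 (adjusted p = 0.0389) were called by limma-voom, and Isl1 also without control 2 (adjusted p = 0.0323). Hmga2, a chromatin protein of proliferating progenitors whose exons overlap those of another gene, had a log2 fold change of 0.42 and an adjusted p of 0.290.

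Among 20 periotic mesenchyme factors, 13 had a positive and 7 a negative log2 fold change. The smallest unadjusted p were those of Zic2 (227 ± 12.2 and 276 ± 33.1 CPM), Foxf2 (96.5 ± 5.15 and 112 ± 10.4) and Foxc2 (73.8 ± 4.32 and 82.8 ± 6.47), with edgeR adjusted p of 0.282, 0.360 and 0.508. Exons of Foxf2 overlap those of another gene. Of the Sox genes closest to Sox2 and Sox9, Sox3 had 2.22 ± 0.634 CPM in controls and 1.25 ± 0.448 in the libraries labelled cKO, with an adjusted p of 0.272. Sox8 had 30.6 ± 6.14 and 29.4 ± 4.52 CPM. Sox10, whose sequence drives Cre, had 205 ± 25.8 and 226 ± 17.5 CPM, a log2 fold change of 0.14 (SE 0.0926). Sox1 was too low to be tested.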

How the data were processed

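Polyadenylated RNA was read as paired reads of 150 bp, per the labels' protocols. The authors deposited whole-number counts per Ensembl gene and FPKM values. STAR 2.5, HTSeq 0.61 and DESeq2 and the build mm10 are named in the submitters' processing notes, and the annotation and use of strand are not given in the sources used here. The length each FPKM implies matched GENCODE M21 (GRCm38, another name of mm10) within 0.1% for 95.3% of 13928 genes, each of 50 counts or more in all libraries, so names and positions were taken from it.

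Counts were filtered with filterByExpr (minimum 10 counts) and scaled by TMM, and genotypes were compared with edgeR 4.0.16 (quasi-likelihood F-test, robust, R 4.3.3) after a check on simulated data. Adjusted p-values cover all 17937 genes; intervals use the fit's standard errors. CPM was computed from TMM-scaled totals, and log2 CPM with a prior count of 2. Single genes were also tested by exact permutation of 252 assignments (smallest p 0.00794). Promoters came from RefSeq. The genes, lists and tests were chosen with earlier results of these data known. Genes named are the 9, Esrrg, Sox10, genes sharing exons with or named after one of the 9, the 3 smallest unadjusted p of each related list, and the closest patterns. Marker genes that fell, and listed genes at 0 or too low to be tested, are named as well and were chosen after their values were seen. Alternatives were other scaling, other filters, DESeq2 1.42.0, limma 3.58.1 on counts and on log2(FPKM + 1) and log2(FPKM + 0.1), the replicate number as a block, an adjusted p of 0.1, and leaving out each library. The result of 1 marker gene is not reported here.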

Additional observations from a re-analysis of the deposited data

Results flagged for a closer look

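The highest and lowest library of 15 measures were compared with the rest of each genotype by Dixon's test (critical value 0.71 for 5 libraries). Chance gives about 1 case in 20 groups, so 1.5 in the 30 groups examined. There were 3 cases. Prox1os was high in control 2, at 1.97 CPM against 0.956 to 1.25 in the other controls. The first principal component set control 2 at -29.0 against -4.11 to 5.70, and cKO 5 at 17.9 against -0.690 to 1.77. That axis is drawn along the largest spread of these same libraries, so the chance rate above does not hold for it. None of the 9 factors was among the cases.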

How the results depend on the processing

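Over 19 alternatives the log2 fold changes of Pax2, Sox9, Prox1, Gata2, Tbx1 and Pou3f4 kept their sign. That of Eya1 turned to -0.0052 without control 2. That of Sox2 turned to 0.083 with limma-voom, to 0.0070 without control 1 and to 0.018 without cKO 2. That of Lmx1a turned to -0.051 without control 2 and to -0.00092 without cKO 5. The number of the 9 called was 0 in all alternatives except limma-voom and the fit without control 2, with 1 each (Prox1), so fits with 1 library left out gave 0 to 1. With 1 library left out the log2 fold change ran from -0.0052 to 0.10 for Eya1, from -0.15 to 0.018 for Sox2 and from -0.051 to 0.16 for Lmx1a. It ran from 0.014 (without cKO 3) to 0.19 (without control 1) for Sox9, from 0.29 to 0.45 for Pax2, from -0.66 to -0.45 for Prox1, from 0.12 to 0.20 for Gata2, from 0.041 to 0.11 for Tbx1 and from 0.13 to 0.28 for Pou3f4. Of the related factors limma-voom called 2, and fits with 1 library left out called 0 to 1. Calls over all genes were 111, with 307 by DESeq2, 424 by limma-voom and 52 to 197 with 1 library left out. The cause was not tested.

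Same-numbered libraries of the 2 genotypes had correlated deviations above 0.1 in 2 of 5 pairs (0.021 to 0.18), and 3 of 5 controls correlated best with their own number, so the numbers were not taken to pair animals. With the replicate block 101 genes and 0 of the 9 were called, and the adjusted p was 0.0549 for Prox1 and 0.0583 for Prox1os. Prox1os did not pass the filter of at least 1 CPM in 5 libraries, and was called in 9 of its other 18 alternatives, added after its call was seen. The exact permutation tests without control 2 were also added after that library was seen to stand apart.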
